A study of Mus musculus with 9 samples.

Results

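This report describes 6 arrays, 3 of pro-B cells in which deleted Ebf1 had been replaced by full-length EBF1 and 3 of the mock-transduced control, out of 9 arrays in the series. They were chosen by sample title. The other 3 arrays, of cells given the construct EBF1ΔC, entered the statistical model only for its shared estimate of spread and filter. The comparison is EBF1wt minus Mock. The cells of both groups were C57Bl/6 pro-B cells transformed with the Abelson murine leukaemia virus (A-MuLV). Their genotype was Ebf1fl/fl RERTCre, meaning floxed Ebf1 and a Cre recombinase switched on by tamoxifen, and all of them had received 2 µM 4-hydroxytamoxifen, the agent that deletes the endogenous gene. The EBF1wt cells had been transduced with the retrovirus pmys-EBF1wt-IRES-GFP 24 h ahead of tamoxifen, were sorted as GFP-positive 5 days after it, and were used more than 2 weeks later. The Mock cells were mock-transduced, also 24 h ahead of tamoxifen. They were harvested 4 days after tamoxifen, at a time when no cell death had yet been seen.

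The groups therefore differ in time after deletion and in sorting as well as in what was transduced, EBF1 or mock. The labels name neither the number of cell lines or clones nor separate cultures. If the replicates were not separate cultures, the p-values below measure only the spread between these samples, which may be technical. The source name of EBF1wt replicate 3 does not mention tamoxifen, whereas its description does, and the array was kept in its group. An Abelson line carries a viral tyrosine kinase that keeps pro-B cells growing without feeder cells, which limits it as a model of pro-B cells in the marrow.

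EBF1 (early B-cell factor 1) is a DNA-binding protein that, with E2A, FOXO1 and PAX5, sets up and holds the B-lineage programme. Pro-B cells express the surrogate light chain, made of VpreB and lambda5, and signal through the interleukin 7 receptor while the V(D)J recombinase joins the heavy chain gene. Genes of mature B cells, including MHC class II, are usually low at this stage and rise later.

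On every array 43379 spots were not controls, and between 50.5% and 56.7% of them were well above background. Scaled signals are log2 intensities minus the 75th percentile of the array, so that 0 is the level of a gene at that percentile. The percentile lay between 384 and 508 intensity units, and no spot was saturated. Across the 12002 genes tested, Mock arrays correlated with each other at r between 0.995 and 0.996, EBF1wt arrays at 0.988 to 0.994, and arrays of different groups at 0.933 to 0.942, genes being no independent replicates. Mock arrays lay on slides 1 and 2 of scan day 1, and EBF1wt arrays on slides 3, 4 and 5 of scan day 2, so scan day, slide and group cannot be told apart. The identity given by the labels was compared with markers: the B-lineage genes Vpreb1, Cd79b and Ighm were well above background on all 6 arrays. Kit and Cd34, members of the list of pro-B and pre-B surface markers, were not above it on any. Mock arrays also read genes of mature B cells, such as Fcer2a (below). The markers thus place the cells in the B lineage and do not settle the stage. EBF1wt replicate 2 stood apart from its group, with an array weight of 0.372, and its share in the results is given below.

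Between Mock and EBF1wt, genes that were lower by 2-fold or more outnumbered those that were higher. Calls required a limma adjusted p (Benjamini-Hochberg) under 0.05 together with a difference of at least 2-fold. EBF1wt had 795 higher genes (6.62% of the 12002 tested) and 1531 lower ones (12.8%), together 2326 (19.4%). The adjusted p alone was passed by 7988 genes (66.6%). Large differences were mostly decreases: 612 genes were at least 4-fold lower and 192 at least 4-fold higher, and 55 were at least 32-fold lower against 22 higher. The 3 EBF1wt arrays did not overlap the 3 Mock arrays for 8710 genes (72.6%), so a lack of overlap alone says little in this comparison. The median difference of all genes was 0.12. Scaling each array to its median instead of its 75th percentile raised the median of all genes by 0.71, and then 4584 genes were called higher and 787 lower, a split of 85.3% higher instead of 34.2%. Quantile normalization gave 963 higher and 1161 lower, or 45.3% higher. The direction of small differences therefore depended on the scaling. Gene groups are to be read beside the median of all genes and the shares of all genes called higher (6.62%) and lower (12.8%).

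**Figure D1:**
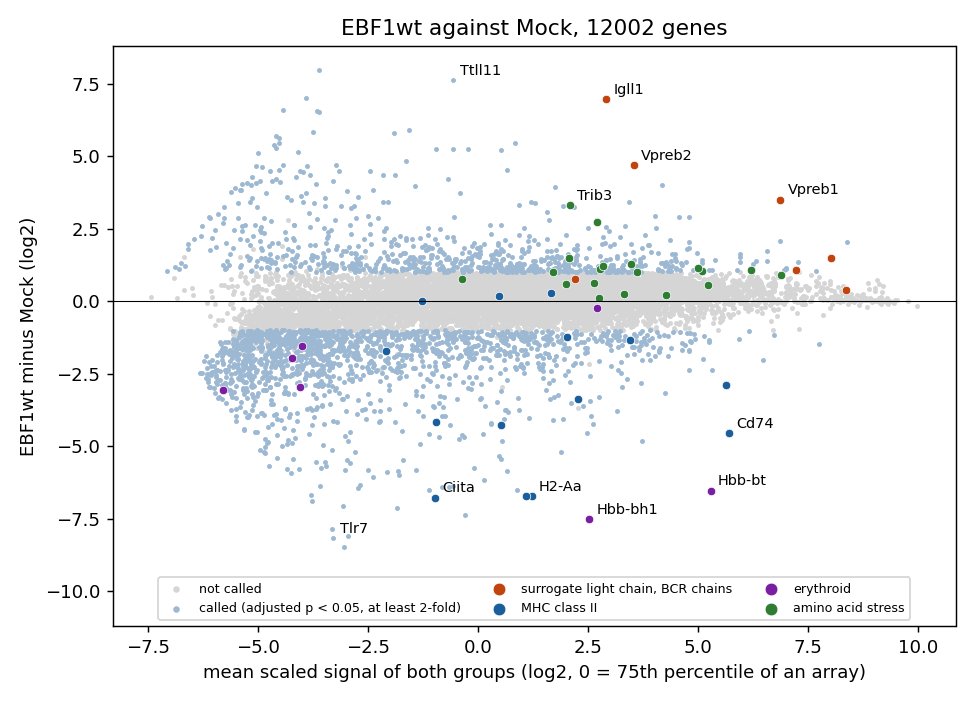
EBF1wt minus Mock (log2, vertical axis) against the mean scaled signal of both groups (log2, horizontal axis) for 12002 genes, with called genes in blue and members of 4 gene lists in colour. The surrogate light chain genes Igll1, Vpreb2 and Vpreb1 lie at the top right, and MHC class II and globin genes at the bottom.

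The Ebf1 transcript itself was examined first. The probe for its mRNA (chromosome 11, 44818365 to 44818424, mm9) gave a scaled signal of 1.73, 1.47 and 1.17 on the Mock arrays and of 3.17, 2.87 and 3.16 on the EBF1wt arrays. The groups did not overlap, and EBF1wt was 1.61 log2 higher (SE 0.15, adjusted p = 3.49e-05, limma), a 3.05-fold difference. Another Ebf1 probe, taken from a cDNA sequence (chromosome 11, 44462618 to 44462677), could be read on all 3 Mock arrays and on no EBF1wt array, which makes it at least 6.56-fold lower. The 2 probes thus went in opposite directions. Whether the floxed segment or the viral transcript contains either probe is not given in the sources used here, so neither value measures deletion or transgene level. Probes for Ebf2, Ebf3 and Ebf4, the paralogs of Ebf1, were not well above background on any of the 6 arrays.

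The surrogate light chain genes rose in EBF1wt, with little spread among its arrays. Igll1 encodes lambda5 and Vpreb1 and Vpreb2 encode VpreB, the non-covalently joined parts that stand in for a light chain on the pre-B-cell receptor. The probes of Igll1 and Vpreb2 are shown because they read the largest rises of this list; both sequences come from the array files, and the positions are on mm9, chromosome 16, 16861104 to 16861163 for Igll1 and 17980689 to 17980835 for Vpreb2.
Igll1 probe: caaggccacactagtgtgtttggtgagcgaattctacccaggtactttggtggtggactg
Vpreb2 probe: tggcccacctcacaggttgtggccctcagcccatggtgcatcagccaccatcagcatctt

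Igll1 had a scaled signal of -0.29, -0.64 and -0.80 on the Mock arrays and of 6.44, 6.41 and 6.34 on the EBF1wt arrays. It rose by 6.97 log2 (SE 0.12, adjusted p = 8.35e-09), and a second Igll1 probe, designed on an Ensembl transcript, rose by 3.46. Vpreb2 went from 1.36, 1.12 and 1.09 to 5.94, 5.84 and 5.87, a rise of 4.69 (SE 0.09). Vpreb1 was already at 5.13, 5.21 and 5.02 in Mock and reached 8.68, 8.54 and 8.63, a rise of 3.50 (SE 0.08). Vpreb1 and Vpreb2 are near-identical copies, so each probe may also have bound the other transcript. For each of these 3 genes every EBF1wt array lay above every Mock array, and the SD among EBF1wt arrays was 0.05 for Igll1, 0.05 for Vpreb2 and 0.07 for Vpreb1.

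Vpreb3, a smaller relative that assists the assembly of immunoglobulin chains, rose by 1.5 (SE 0.10), with values of 7.34, 7.25 and 7.23 in Mock and 8.69, 8.73 and 8.91 in EBF1wt. Cd79b, a signalling chain of the B-cell receptor, rose by 1.08 from 6.68 ± 0.01 to 7.76 ± 0.09 (SD, n = 3 arrays). Its partner Cd79a gave 2.12, 1.43 and 1.88 in Mock and 2.75, 2.40 and 2.60 in EBF1wt, a difference of 0.78 that missed 2-fold. Ighm, the mu heavy chain, differed by 0.38 at a high level in both groups (8.16 ± 0.03 and 8.54 ± 0.10). In all, 5 of 7 genes of surrogate light chain and receptor were called higher and 0 lower, with a median of 1.5. Under quantile normalization the Cd79b call was lost and the list counted 4.

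Genes known from the literature as activated by EBF1 were divided between called and uncalled ones. Of 17 such genes 16 were tested, Rag2 being too dim on every group of arrays, and 8 were called higher and 2 lower, with a median of 0.93. These counts stand beside 6.62% of all genes called higher and 12.8% called lower, so the share called lower was close to that of all genes. This list holds Igll1, Vpreb1, Vpreb3 and Cd79b from above. Lef1, a transcription factor of the Wnt pathway active in pro-B cells, rose by 1.97 (SE 0.10) from 1.93, 1.73 and 1.81 to 3.87, 3.80 and 3.71, and its groups did not overlap. Foxo1 rose by 1.37 (SE 0.08). Rag1, the recombinase subunit, rose by 2.14 (SE 0.48), but unevenly: its EBF1wt values were -0.33, -2.23 and -0.64 against -3.43, -2.70 and -3.48 in Mock, and without EBF1wt replicate 2 the difference was 2.72.

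The 2 list members that fell were Blk and Cr2. Blk, a Src-family kinase of B cells, was at -2.93, -3.10 and -2.91 in Mock and was not well above background on any EBF1wt array, which makes it at least 5.01-fold lower. Cr2, the complement receptor of mature B cells, fell by 1.66 (SE 0.31). Both calls were lost with normexp background correction and with the authors' values, and that of Cr2 also under scaling to the median. Blnk (0.40), Cd53 (0.38), Pax5 (0.25), Cd72 (0.15) and Pou2af1 (0.12) differed by less than 2-fold. Pax5, the factor that holds the B-lineage choice, gave -1.62, -1.92 and -2.08 in Mock and -1.68, -1.41 and -1.76 in EBF1wt. These values overlapped (adjusted p = 0.138).

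**Figure D2:**
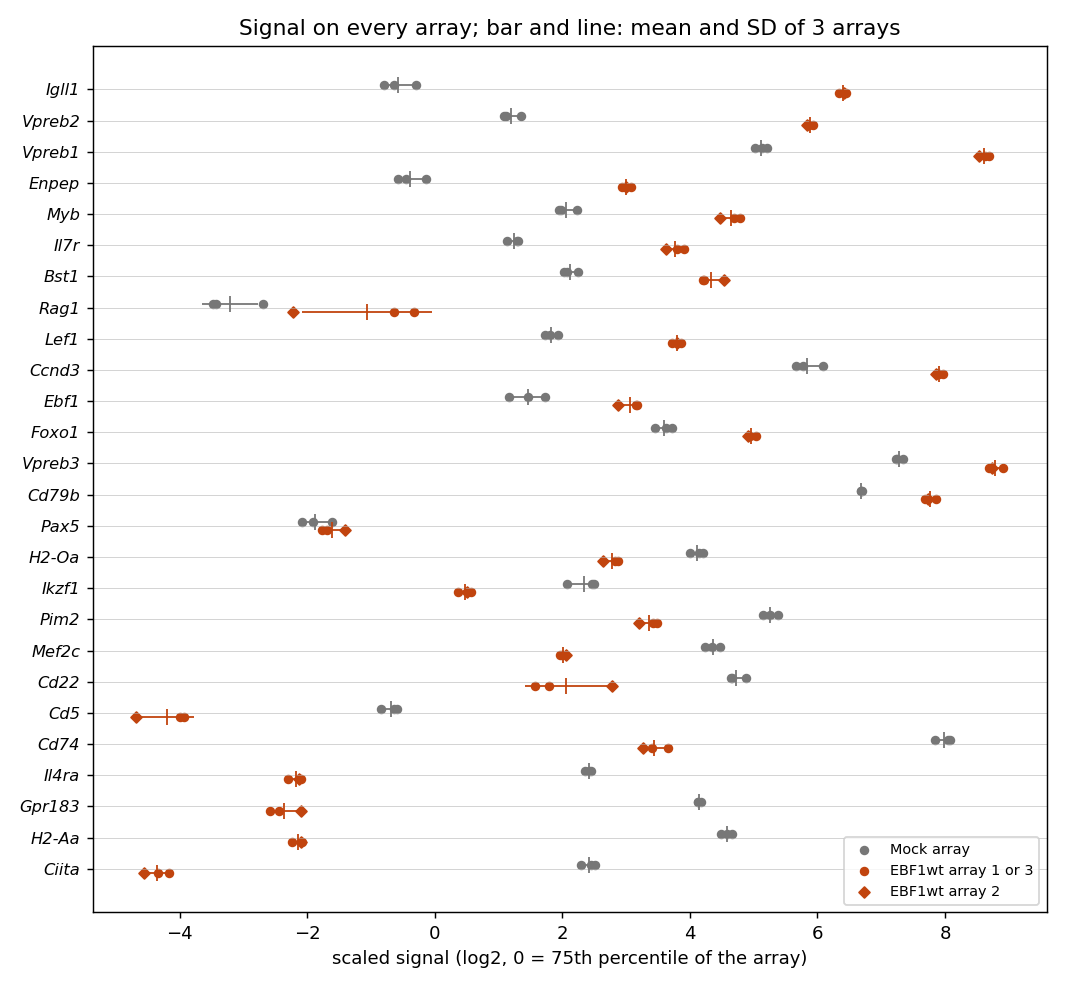
Scaled signal (log2, horizontal axis) of 26 genes on each of 3 Mock arrays (grey) and 3 EBF1wt arrays (red, replicate 2 as a diamond), with the mean and SD of each group. Igll1 lies at -0.57 ± 0.26 in Mock and 6.40 ± 0.05 in EBF1wt, Pax5 overlaps, and Rag1 and Cd22 show replicate 2 away from the other EBF1wt arrays.

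Among 23 B-lineage transcription factors, 7 were called higher and 2 lower, beside 6.62% and 12.8% of all genes, with a median of 0.46. Ebf1 itself, whose probes disagreed, is among the 7, and the share called lower was below that of all genes. When the probes of a gene were averaged, 5 were called higher and 4 lower, with a median of 0.12. Myb, a factor required for pro-B cell survival, showed the largest rise, from 2.23, 1.98 and 1.94 to 4.70, 4.47 and 4.79 (2.60, SE 0.14, adjusted p = 1.88e-06). Sox4, a factor of early B-cell progenitors, rose by 1.13 and Irf4, which acts in pre-B-cell maturation, by 1.12. The Irf4 call was lost without EBF1wt replicate 2 (0.99), with normexp correction and with the authors' values. Erg, an ETS factor of progenitors, was called at 1.42 (SE 0.52, adjusted p = 0.0389), yet its EBF1wt value on replicate 2 was -2.24, inside the Mock range of -2.42 to -1.90, while the other arrays read -0.03 and -0.06. The Erg call was lost under 14 of 23 other settings, and without EBF1wt replicate 2 its difference was 2.15.

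The factors that fell were Mef2c and Ikzf1. Mef2c, a MADS-box factor that B cells use from the lymphoid progenitor stage on, went from 4.24, 4.48 and 4.35 to 2.00, 2.06 and 1.96, a difference of -2.35 (SE 0.10). Ikzf1, which encodes the zinc finger protein Ikaros, fell by 1.87 (SE 0.12), from 2.08, 2.46 and 2.50 to 0.37, 0.50 and 0.57. The E-protein gene Tcf3 (0.55), which encodes E2A, and Spi1 (-0.52), which encodes PU.1, differed by less than 2-fold. Regulators of other lineages were largely dim: of 17 such genes 7 were tested, and 2 were called higher. Cebpb, a myeloid and stress-responsive factor, rose by 3.57 (SE 0.25) from values above background on 1 of 3 Mock arrays, and Hes1, a Notch target gene, rose by 2.87 (SE 0.44). Hes1 was uneven in Mock, at -2.95, -4.80 and -4.87. Cebpb lost its call when only probes with a RefSeq identifier stood for a gene.

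Of 14 interleukin 7 pathway genes, 1 was called higher and 3 lower, beside 6.62% and 12.8% of all genes. Il7r, the alpha chain of the receptor, was at 1.30, 1.13 and 1.28 in Mock and 3.91, 3.62 and 3.79 in EBF1wt, a rise of 2.54 (SE 0.13). Socs1, a feedback inhibitor of JAK kinases, fell by 1.86 (SE 0.18), Pim2, a survival kinase induced by STAT5, fell by 1.90 (SE 0.14), and Ccnd2, a D-type cyclin, fell by 1.82 (SE 0.09). For each of these 3 genes the groups did not overlap. Il2rg, the shared gamma chain (-0.98), and Jak3, the kinase bound to it (-0.94), stayed just short of 2-fold. Stat5a differed by -0.05 and Jak1 by -0.15, while Stat5b (0.72, adjusted p = 3.3e-05) and Cish (0.58, adjusted p = 0.00224), a feedback inhibitor, were higher at less than 2-fold. Probes of Stat5b disagreed: another read 0.56, and a cDNA clone probe, not above background on any EBF1wt array, had a fitted difference of -1.52. The other Jak3 probes read -0.54 and -0.10. The list median was -0.41, and it turned positive (0.29) only under scaling to the median. With quantile normalization or the authors' values 6 members were called lower, and with normexp correction 5. Other D-type cyclins moved apart: Ccnd3 rose by 2.07 (SE 0.12), from 6.08, 5.66 and 5.78 to 7.97, 7.85 and 7.91, and Ccnd1 fell by 1.71, a call that was lost with normexp correction and the authors' values.

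Of 12 genes for V(D)J recombination and end joining, 3 were called higher (6.62% of all genes) and 1 lower (12.8%). Their median was 0.22. Besides Rag1, the higher ones were Lig4, the ligase that seals coding joins (1.19, SE 0.13), and Xrcc6, which encodes Ku70 (1.14, SE 0.12). Dclre1c, which encodes the hairpin opener Artemis, fell by 1.28 (SE 0.17). The calls of Lig4, Xrcc6 and Dclre1c were lost with normexp correction and the authors' values. Dntt, the terminal transferase that adds N nucleotides, gave 1.11, 1.34 and 0.98 in Mock and 0.85, 0.27 and 0.43 in EBF1wt, and the difference of -0.62 did not pass (adjusted p = 0.109).

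Surface markers of pro-B and pre-B cells split into a higher and a lower group. Of 13 tested, 6 were called higher and 5 lower, beside 6.62% and 12.8% of all genes. Enpep, the aminopeptidase known as BP-1, rose most, from -0.13, -0.46 and -0.58 to 2.93, 2.99 and 3.07 (3.39, SE 0.16), and Bst1, the marker BP-3, rose by 2.21 (SE 0.10). Cd44, an adhesion receptor, rose by 1.60, and Ly6d and Cd24a, which mark B-lineage progenitors, rose by 1.70 and 1.09. The last pair, like Ptprc below, was named after its values were seen. Il2ra, the pre-B-cell marker CD25, fell by 5.46 (SE 0.30) and was above background on 1 EBF1wt array. Ly6a (Sca-1) fell by 3.59 and Ptprc, the phosphatase CD45, fell by 1.34. Cd2 was called at -2.14 (SE 0.70), a call that was lost when any 1 Mock array, EBF1wt replicate 1 or EBF1wt replicate 3 was left out, and under normexp correction, quantile normalization, the authors' values and no filter. The members above background in neither group were Kit, Cd9, Thy1 and Cd34.

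Among proteins that carry the signal of the pre-B-cell receptor, some adaptors were lower while most kinases and enzymes stayed within 2-fold. Of 20 genes tested, 2 were called higher and 5 lower, beside 6.62% and 12.8% of all genes, with a median of -0.03. Lat2, a membrane adaptor, fell by 5.84 (SE 0.31), from 1.09, 1.06 and 1.13 to -4.72, -5.10 and -4.40. Bank1, a B-cell scaffold, fell by 2.34, and Rasgrp3, an activator of Ras, was at least 5.78-fold lower, a call lost with normexp correction and the authors' values. The groups did not overlap for any of these genes. Vav2, an exchange factor, rose by 1.52 (SE 0.23), and its call was lost when only probes with a RefSeq identifier were used. The kinase genes Btk (0.99) and Syk (0.71), named after their values were seen, missed 2-fold, and Plcg2, the phospholipase, read 6.14, 5.91 and 6.02 in Mock and 6.07, 6.00 and 6.00 in EBF1wt.

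Inhibitory receptors and phosphatases fell more widely: 10 of 16 tested were called lower and 0 higher. The median of their fitted differences was -1.51, and -0.92 when the 4 members above background in Mock only were set at their bounds. Cd22, a sialic acid-binding receptor that dampens B-cell signals, fell by 2.68 (SE 0.27), from 4.64, 4.66 and 4.89 to 1.58, 2.78 and 1.79. Cd5 fell by 3.51 (SE 0.23), from -0.84, -0.59 and -0.64 to -3.99, -4.68 and -3.93. Btla fell by 7.12 (SE 0.59) and was above background on 1 EBF1wt array. Pirb and Cd300lf were not well above background on any EBF1wt array and were at least 57.1-fold and at least 84.3-fold lower. Fcrl1 (-1.87), Fcrl5 (at least 1.6-fold lower, a call lost with normexp correction and the authors' values), Ptpn22 (-1.30), Lilrb4a and the phosphatase SHP-1, encoded by Ptpn6 (-1.15), were the other members called, and Fcrl1, Ptpn22, Lilrb4a, Ptpn6 and Fcgr2b were named after their values were seen. Fcgr2b (0.08) and Cd72 (0.15) lay near the median of all genes, and Inpp5d, which encodes the lipid phosphatase SHIP-1, was 0.82 higher. The median of fitted differences stayed below 0 with quantile normalization, normexp correction, the authors' values and scaling to the median, from -1.38 to -0.80, and under the last of these 2 members were called higher.

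MHC class II genes fell together, while class I genes did not. Of 14 tested class II genes and transactivators, 11 were called lower and 0 higher, with a median of -3.13. Ciita, the transactivator on which the class II promoters depend, went from 2.30, 2.45 and 2.51 to -4.33, -4.55 and -4.17, a difference of -6.77 (SE 0.16, adjusted p = 2.93e-08). H2-Aa fell by 6.72 (SE 0.17), from 4.57, 4.49 and 4.66 to -2.07, -2.10 and -2.24. H2-Eb1 fell by 6.73 (SE 0.20), from 4.51, 4.32 and 4.55 to -2.09, -2.27 and -2.44. The decreases were not of 1 size: H2-Ab1, the partner chain of H2-Aa, fell by 2.89 (SE 0.09), from 7.14, 7.0 and 7.12 to 4.07, 4.31 and 4.21, and its 4 probes ranged from -3.30 to -2.89. Cd74, the invariant chain, fell by 4.54 (SE 0.12), from 8.07, 7.84 and 8.05 to 3.66, 3.26 and 3.41.

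The peptide-loading genes H2-DMa (-4.27), H2-DMb2 (-4.16) and H2-DMb1 (-3.37) fell further than their modulators H2-Oa (-1.34) and H2-Ob (-1.24), whose calls were lost under scaling to the median. Rfx5, Rfxap and Rfxank encode the complex that binds class II promoters alongside CIITA, and differed by 0.02, 0.28 and 0.20. Of 16 genes of class I presentation, 0 were called in either direction by limma, while 8 had an adjusted p under 0.05 at less than 2-fold (5 higher, 3 lower) and 8 an unadjusted p under 0.05. Among all genes tested, 66.6% passed the adjusted p at any fold difference. H2-K1 read 8.2, 8.16 and 8.16 in Mock and 8.19, 8.13 and 8.18 in EBF1wt, and B2m, the light chain of class I, was 0.25 higher. Nlrc5, the class I counterpart of Ciita, named after its values were seen, was at -0.89, -0.51 and -0.23 in Mock and -1.14, -1.37 and -1.29 in EBF1wt, a difference of -0.72 that missed 2-fold.

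Markers of mature and germinal-centre B cells were lower, with 9 of 15 tested called lower, 2 higher and a median of -1.87. Fcer2a, which encodes CD23, was well above background on all 3 Mock arrays and on no EBF1wt array, at least 54.4-fold lower. Bcl6, the germinal-centre repressor, fell by 3.36 (SE 0.24), and Cd40, a co-stimulatory receptor, fell by 3.37 (SE 0.18). Ms4a1, which encodes CD20, differed by -0.52 with overlapping arrays. The 2 members called higher, named after their values were seen, were S1pr2 (at least 2.68-fold) and Cd1d1 (1.75). Of 12 plasma-cell genes, Jchain, the J chain (-5.76), and Derl3, an endoplasmic reticulum degradation factor (-3.97), fell, and Sdc1 (1.45) and Irf4 (1.12) rose. These counts stand beside 12.8% of all genes called lower and 6.62% called higher. In bulk samples such as these, fewer cells of a type and less RNA per cell cannot be told apart.

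Receptors that guide migration fell in 9 of 15 cases and rose in 3, with a median of -2.28 (-0.46 with the authors' values, where 5 fell and 2 rose). Gpr183, the oxysterol receptor EBI2, went from 4.13, 4.18 and 4.12 to -2.44, -2.09 and -2.58 (-6.51, SE 0.21), and Ackr2, a scavenging chemokine receptor, fell by 6.38 (SE 0.13). Ccr2 was at least 36.4-fold lower. Ccr6 fell by 5.83 with an SE of 1.12, because EBF1wt replicate 2 read -7.56 and the other arrays -2.70 and -2.68. The 3 that rose, named after their values were seen, were Cxcr4, the receptor that keeps progenitors in the marrow (2.30, SE 0.15), S1pr4 (1.31) and S1pr2. Cxcr4 read -0.64, -0.94 and -1.0 in Mock and 1.43, 1.22 and 1.68 in EBF1wt.

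Receptors and adaptors of innate sensing were next, with counts that stand beside 12.8% of all genes called lower and 6.62% called higher. Of 16 Toll-like receptor genes and partners, 5 were called lower and 1 higher, with a median of -0.63. Tlr7, the sensor of single-stranded RNA, was well above background on all Mock arrays and on no EBF1wt array, at least 68.3-fold lower. Cd180 fell by 2.60, Irak2 by 2.28 (not called with the authors' values) and Ticam1 by 1.24 (not called under scaling to the median), whereas Irak3, an inhibitor of the pathway, rose by 1.68 (SE 0.11). Myd88 (-0.57), Irak1 (-0.60) and Unc93b1 (-0.66) missed 2-fold. Of 16 NF-kB genes, 6 were called lower and 0 higher, and under scaling to the median 2 and 1. Bcl3, a nuclear cofactor of NF-kB, went from 3.12, 3.08 and 3.27 to -2.02, -2.26 and -2.26 (-5.34, SE 0.15). Relb (-1.62) and Nfkb2 (-1.16), the subunits of the non-canonical pathway, fell less and lost their calls under scaling to the median, and Nfkbia read 3.95, 4.03 and 3.84 against 3.95, 3.92 and 3.94. Of 7 Gimap genes, small GTPases of lymphocytes in 1 cluster on chromosome 6, 5 fell, from -1.33 in Gimap5 to -6.39 in Gimap4, and Gimap1 (-0.75) and Gimap9 (-0.31) did not reach 2-fold. Under scaling to the median 3 of the 7 were called lower, without Gimap5 and Gimap6. Of other cytokine receptors 6 of 17 fell and 0 rose; Il4ra went from 2.45, 2.36 and 2.42 to -2.10, -2.13 and -2.30 (-4.59, SE 0.09).

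Markers of other blood cells were read for both groups. Of 12 erythroid genes on the array, 7 were well above background on all Mock arrays and 3 on all EBF1wt arrays, and Hba-x and Alas2, among others, were above it on none of the 6. Their summed linear signal, in units of the 75th percentile, was 430.2 to 491 in Mock and 9.31 to 12.5 in EBF1wt. In Mock this sum came mostly from Hbb-bt and Hbb-bh1. Other members were dim there, with Mock means of -3.24 for Hba-a1, -3.22 for Hba-a2, -4.27 for Hbb-y and -2.57 for Epor. Tfrc, with a Mock mean of 2.81, differed by -0.22 and was not called. Hbb-bt, an adult beta globin, went from 8.66, 8.58 and 8.43 to 2.43, 1.67 and 1.99, and Hbb-bh1, an embryonic one, from 6.28, 6.29 and 6.28 to -0.35, -2.66 and -0.67. Some globin genes, such as Hba-a1 and Hba-a2, are near-identical copies, and the probes of such copies may share signal. Of 7 tested erythroid genes, 6 fell and 0 rose, and with normexp correction or the authors' values 2 were called lower.

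The myeloid list held 18 genes on the array, of which 7 were above background on all Mock and 6 on all EBF1wt arrays, and Mpo, Elane, Ctsg, Adgre1, S100a8, S100a9, Csf3r and Clec7a on none. Its summed signal ran from 8.34 to 8.82 in Mock and from 1.08 to 4.15 in EBF1wt. Of 7 tested, 2 were called higher and 5 lower, beside 6.62% and 12.8% of all genes. Tyrobp, the adaptor DAP12, fell by 4.92, and Itgax, which encodes CD11c, was at least 31.5-fold lower. Lyz2 and Lyz1, the lysozyme genes, rose by 2.06 and 2.45, but on EBF1wt replicate 2 they read -1.20 and -3.85 against 1.41, 1.24 and -1.10, -1.40 on the other arrays. The Lyz2 call was lost without Mock replicate 1 or 3, or without EBF1wt replicate 1 or 3.

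For T, NK and innate lymphoid cells, 8 of 16 genes were above background on all Mock arrays and 5 on all EBF1wt arrays, with summed signals of 6.89 to 7.95 and 3.96 to 7.04, and Cd4, Cd8a, Gzmb, Ncr1 and Thy1 on none. Of 8 tested, 1 was called higher and 3 lower, beside 6.62% and 12.8% of all genes. Zap70 rose by 1.63, Cd3d was at least 6.9-fold lower, and Nkg7 and Prf1 were also called lower. The 3 lower calls were lost with normexp correction and the authors' values. Stem and progenitor genes summed to 160.6 to 177 in Mock and 68.0 to 81.8 in EBF1wt, with Kit, Cd34, Meis1, Hoxa9, Gata2, Hlf, Mecom and Procr above background on none. Only 4 of the 14 were tested. Lmo2 (-2.34), Hhex (-1.46) and Lyl1 (-1.15) were called lower, and Tal1 (0.58) was not called. Under scaling to the median the calls of Hhex and Lyl1 were lost and Tal1 was called higher. Stromal genes were dim throughout, at 0.62 to 0.742 and 0.288 to 0.543. The part of other cell types in the differences between the groups was not tested.

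Survival genes moved singly, and their counts stand beside 6.62% of all genes called higher and 12.8% called lower. Of 14 BCL2-family genes 2 rose and 1 fell: Bcl2l1, which encodes the protective protein BCL-XL, went from 0.41, -0.11 and 0.09 to 1.90, 1.76 and 1.94 (1.74, SE 0.13), Bok, a BAX-like member, rose by 1.43 (SE 0.12), and Bcl2a1b, a protective member with near-identical copies, was at least 55.6-fold lower. Mcl1 (-0.27) and Bax (0.52) missed 2-fold. Of 14 caspase genes and inhibitors, Casp4, an inflammatory caspase, fell by 4.01 (SE 0.20) and Birc3 by 1.46. Under scaling to the median the call of Birc3 was lost, and 5 members were called higher and 1 lower. Of 17 genes of p53 and its targets 3 rose and 1 fell. Cdkn1a, which encodes the cell cycle inhibitor p21, rose by 1.93 (SE 0.18), from -0.24, -0.84 and -0.43 to 1.60, 1.09 and 1.58.

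Most growth genes stayed below the 2-fold limit. Of 22 replication genes 1 was called, with a median of 0.53, and of 22 mitosis genes 2 were, with a median of 0.61. Of 18 genes of MYC and ribosome biogenesis 0 were called by limma, with a median of 0.55. Of these 18, 15 had an adjusted p under 0.05 at less than 2-fold, 13 of them higher and 2 lower, and 15 an unadjusted p under 0.05. The adjusted p was passed by 66.6% of all genes at any fold difference. Glycolysis genes had a median of -0.09, with 2 higher and 3 lower of 20. These medians stand beside 0.12 for all genes, and the counts beside 6.62% of all genes called higher and 12.8% called lower. Under scaling to the median 16 replication, 19 mitosis and 13 MYC genes were called higher.

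Genes of the amino acid stress response rose. This response, driven by ATF4, raises amino acid synthesis, transporters and tRNA synthetases. Of 19 tested 11 were called higher and 0 lower, with a median of 1.01. Trib3, a pseudokinase induced by ATF4, went from 0.43, 0.44 and 0.42 to 3.67, 3.85 and 3.72 (3.32, SE 0.10, adjusted p = 1.04e-07), and Atf5, a related factor, from 1.30, 1.40 and 1.31 to 4.13, 3.92 and 4.15 (2.73, SE 0.08). Slc7a5, a leucine transporter, rose by 1.49, Psph, an enzyme of serine synthesis, by 1.27, and Nars, the asparaginyl-tRNA synthetase, by 1.22. Several members lay close to the 2-fold limit. Under quantile normalization, normexp correction or the authors' values the count was 5, and without EBF1wt replicate 2 it was 8.

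Cholesterol and fatty acid synthesis genes fell: 13 of 25 were called lower and 0 higher, with a median of -1.0. Mvd, an enzyme of the mevalonate pathway, went from 2.61, 2.38 and 2.52 to 0.00, 0.75 and 0.00 (-2.26, SE 0.19). Scd2, a fatty acid desaturase, fell by 1.98 (SE 0.25), with 3.74, 4.83 and 3.81 in EBF1wt. Under scaling to the median 2 of the 25 were called. Of 19 interferon response genes 8 fell and 0 rose, with a median of -0.72. Under quantile normalization 5 of them were called lower, with normexp correction 3 (median -0.35), with the authors' values 3 (-0.30) and under scaling to the median 1 (-0.01). Oasl2 differed by -2.74, a call lost with normexp correction and the authors' values.

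**Figure D3:**
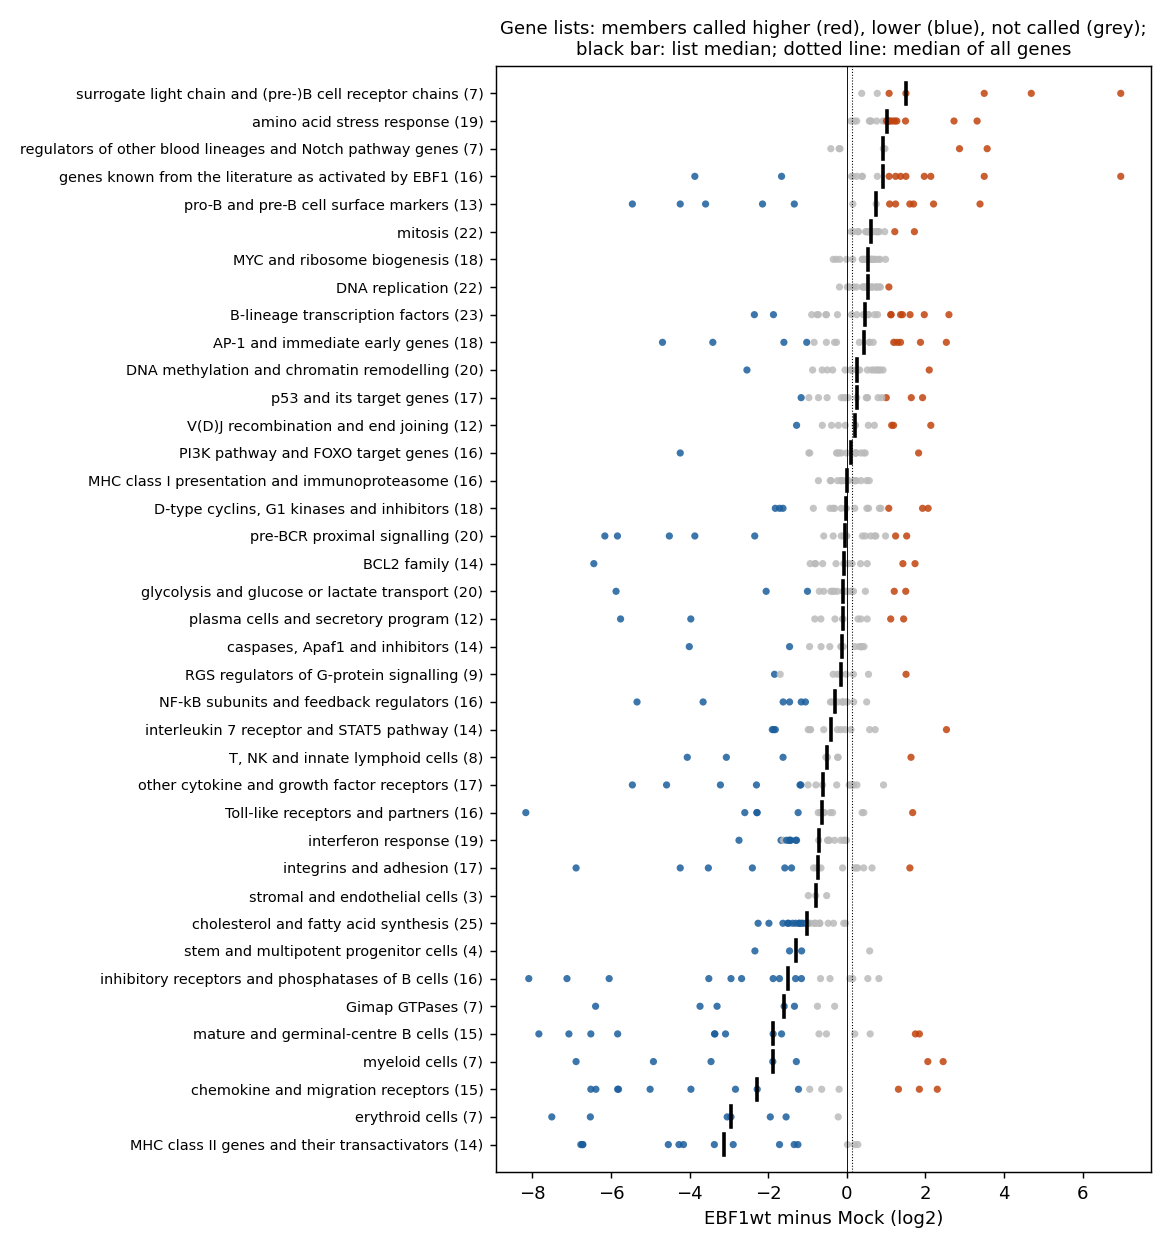
EBF1wt minus Mock (log2, horizontal axis) fitted for each tested member of 39 gene lists, genes with only a bound included, whose number of tested members stands in parentheses; red points were called higher, blue lower and grey not called, and black bars are list medians. MHC class II genes have the lowest median (-3.13) and the surrogate light chain list the highest (1.5), beside 0.12 for all genes (dotted line).

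The highest genes among those well above background on all 6 arrays included many that belong to no B-lineage list. Ttll11, a tubulin polyglutamylase, went from -4.04, -4.65 and -4.47 to 3.18, 3.36 and 3.15, the largest rise among them (7.61, SE 0.37, adjusted p = 1.2e-06). Besides Igll1 and Vpreb2, Rnf130, a ubiquitin ligase (5.91), Cd248, the membrane protein endosialin (5.45), Ell3, an elongation factor (5.25), Nyx (5.24), Col26a1, a collagen (5.24), Tmed3, a trafficking protein (5.22), Cnksr3 (4.85), Adgrg1, an adhesion G-protein-coupled receptor (4.54), and Sertad4 (4.36) followed. Maoa, the monoamine oxidase, was not above background on any Mock array and read -0.15, 1.35 and -0.05 in EBF1wt, at least 55.9-fold higher. Gfra2 (at least 33.8-fold), Tmem40 (32.8), Tmem132e (32.6) and Prodh (24.1) also had large bounds.

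At the other end, clone names aside, after the globin, class II, migration and adaptor genes named above, stood Fcgr1, the high-affinity IgG receptor (-6.37), and Pcp4, a calmodulin-binding peptide (-5.84). In all, 381 genes called lower had no probe above background on any EBF1wt array, and 95 called higher had none on any Mock array.

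The 3 EBF1wt arrays were less alike than the 3 Mock arrays, and EBF1wt replicate 2 differed most. Between 72 and 83 genes on a Mock array lay over 2-fold from the mean of the other arrays of the group, against 342 on EBF1wt replicate 1, 558 on replicate 2 and 280 on replicate 3. On replicate 2, 162 of these were higher and 396 lower. The departures ran along gene lists. EBF1wt replicate 2 was the highest of the 3 EBF1wt arrays for 38.6% of all genes, but for 24 of 25 sterol genes, 17 of 18 genes of MYC and ribosome biogenesis, 15 of 20 glycolysis genes and 14 of 18 immediate early genes. It was the lowest for 38.6% of all genes and for 17 of 19 interferon genes. These shares describe 1 array and were not tested.

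The median of the sterol genes was -1.21, -0.70 and -1.12 relative to the Mock mean on EBF1wt replicates 1, 2 and 3. Without replicate 2 the sterol median became -1.18 and 16 of the 25 were called. Fosb, an AP-1 factor induced within minutes of a stimulus, read -3.06, -0.22 and -3.45 in EBF1wt and -4.95, -4.40 and -4.98 in Mock, and its difference of 2.53 was 1.52 without replicate 2. Nr4a1, another such gene, read -0.62, 0.66 and -0.58 against -2.04, -2.11 and -2.01, and stayed called. Leaving out replicate 2 altogether gave 2284 called genes, 811 higher and 1473 lower, of which 2141 were called the same way with it.

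**Figure D4:**
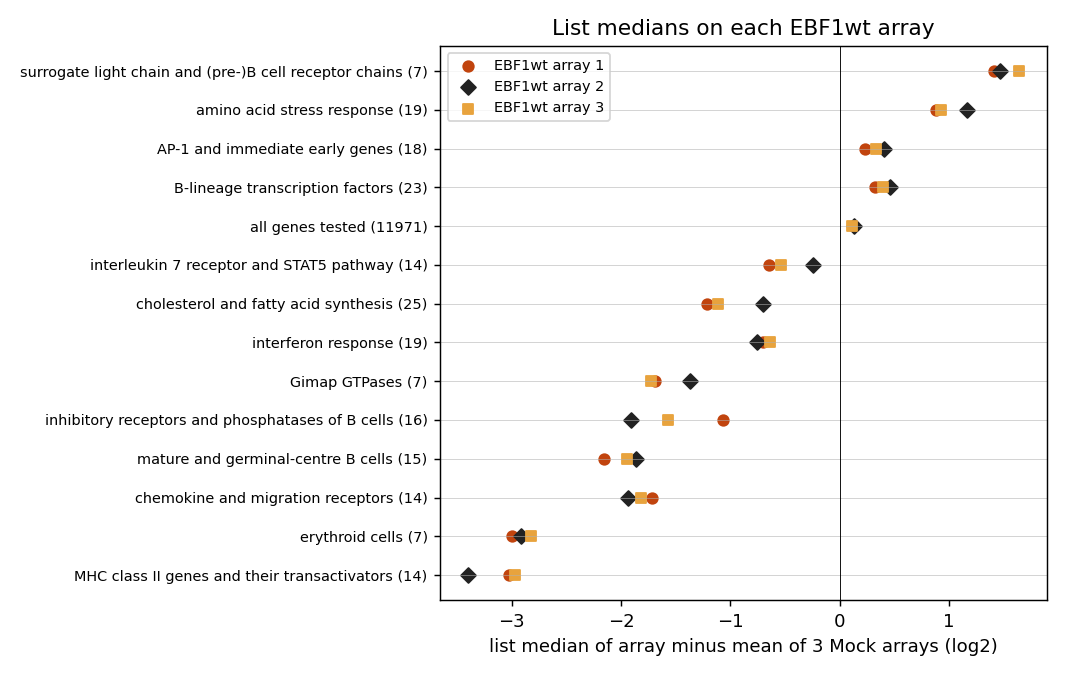
Median over list members of the scaled signal on each EBF1wt array minus the mean of the 3 Mock arrays (log2, horizontal axis) for 13 gene lists and all genes, with the number of genes in parentheses. Replicate 2 (black diamond) lies at -0.70 for sterol synthesis, apart from -1.21 and -1.12, while the surrogate light chain medians run from 1.41 to 1.64.

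The direction of the calls depended on the kind of transcript a probe was designed on. Among 16969 kept probes with a gene and a RefSeq identifier, 10.4% were called lower and 6.72% higher in EBF1wt. Among 1457 such probes designed on RIKEN full-length cDNA clones, 46.3% were lower and 3.71% higher, and among 1047 on Ensembl transcripts 33.9% and 4.78%. Of 936 RIKEN clone probes with no gene name 58.7% were lower and 2.24% higher. In 5361 genes with more than 1 kept probe, 41 had probes called in opposite directions, Ebf1 among them. When only probes with a RefSeq identifier stood for a gene, an alternative chosen after seeing these values, 11250 genes were tested, 742 were called higher and 1272 lower. The part of RNA quality, labelling or scan day in this difference was not tested.

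**Figure D5:**
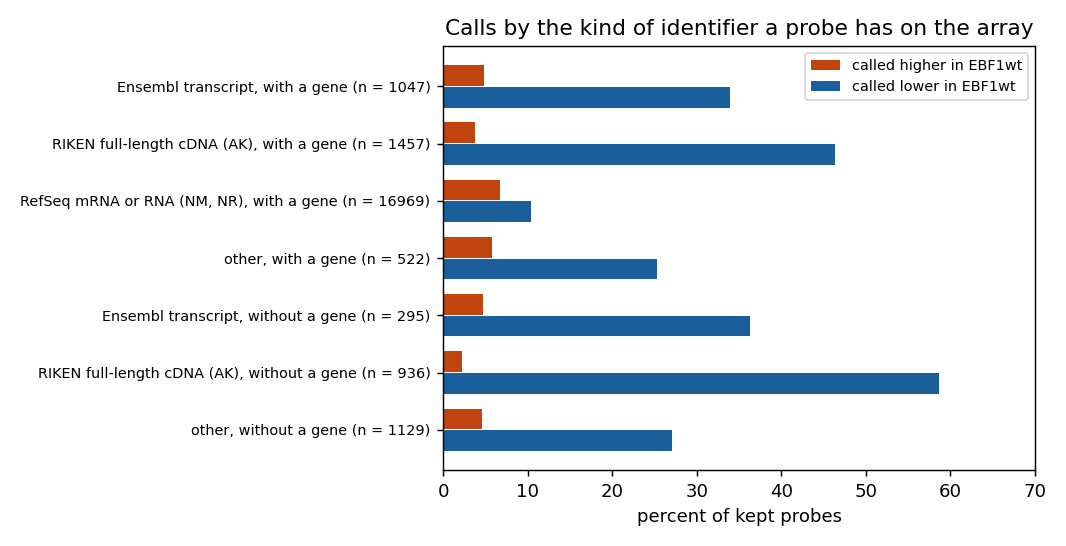
Percent of kept probes called higher (red) or lower (blue) in EBF1wt, by the kind of identifier the array gives the probe, for probes with and without a gene name. RefSeq probes are lower in 10.4% of cases and RIKEN cDNA probes in 46.3% (with a gene) and 58.7% (without).

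Promoters were searched for the core of the palindrome that EBF1 binds, written CCCNNGGG, which reads the same on both strands, in the RefSeq window of 250 bases before to 50 bases after the gene start (GRCm38.p6). A match is a description of the sequence and not a bound site. Of 12002 genes tested, 9383 had a promoter in the table, and 20.5% of these held the motif in at least 1 window, as did 13.7% of all 32851 promoters in the table. The share was 26.4% among 584 genes called higher (exact 95% interval 22.8 to 30.1) and 21.7% among 1058 called lower (19.3 to 24.3), intervals that cover counting error only. Among genes at least 4-fold higher it was 26.4% of 144, and among those at least 4-fold lower 17.7% of 419. Between 18.9% and 21.2% of the genes of each group had several promoters in the table.

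Among named B-lineage genes that rose, Igll1 and Foxo1 held the motif. Their promoters are printed with the match in capitals, in the direction of transcription, as examples of where it lies: at -231 from the gene start of Igll1 (chr16:16863936-16864235, minus strand) and at -91 from that of Foxo1 (chr3:52268087-52268386, plus strand).
Igll1 promoter: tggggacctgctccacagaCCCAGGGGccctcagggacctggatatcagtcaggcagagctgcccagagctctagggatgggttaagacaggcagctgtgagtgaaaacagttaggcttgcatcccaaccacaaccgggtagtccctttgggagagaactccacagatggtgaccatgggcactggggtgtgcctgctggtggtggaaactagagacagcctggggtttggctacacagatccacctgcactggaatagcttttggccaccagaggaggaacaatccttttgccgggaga
Foxo1 promoter: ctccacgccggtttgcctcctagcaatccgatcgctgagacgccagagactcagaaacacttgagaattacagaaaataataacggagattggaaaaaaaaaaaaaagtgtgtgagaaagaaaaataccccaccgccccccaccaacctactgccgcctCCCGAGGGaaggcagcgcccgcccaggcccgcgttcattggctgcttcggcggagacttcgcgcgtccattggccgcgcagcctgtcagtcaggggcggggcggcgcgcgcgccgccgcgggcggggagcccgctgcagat
The windows of Vpreb1, Vpreb2, Vpreb3, Lef1, Rag1 and Myb did not hold these letters, and neither did those of 7 MHC class II genes that fell (H2-Aa, H2-Eb1, H2-Eb2, H2-DMa, H2-DMb1, H2-Oa and H2-Ob). H2-DMb2, which fell, and Rfxank, which was not called, held them. Erg, which rose, and Ikzf1, which fell, did.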

How the data were processed

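RNA was hybridised to 1-colour Agilent 4x44K arrays. Per the file headers, the authors' scanner files were made with Feature Extraction 10.5.1.1 on build mm9 (the submitters' processing notes name 9.1) and hold intensity per spot, background-subtracted and detrended within each array. The deposited value table holds the authors' log2 values, with column medians of 6.74; they correlated at r = 0.999 or above with quantile-normalized log2(mean signal + 50) of the same array, so their scale and direction are settled and their exact normalization is not.

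Here log2 of the processed signal minus the 75th percentile of each array was used. Control spots and outlier spots were left out, spots of a probe were averaged, and a probe was kept if 1 or more groups had it well above background throughout (22355 of 41174). Of the 41174, 27578 were named through accessions, 5413 by symbol, 663 by synonym and 1129 as in the files, and 6391 were not named. The brightest kept probe stood for a gene; 38 genes lacked 1 of the 6 arrays. limma 3.58.1 (R 4.3.3) fitted group means over all 9 arrays, with Benjamini-Hochberg adjustment over 12002 genes. Scripts were tested on simulated data. The number of arrays limits the precision.

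A gene not well above background on any array of a group is given as "at least N-fold": the bright group's mean against, per array, the higher of the lowest signal well above background and the dim probe's own. Levels of different genes come from different probes and were not compared.

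Members, lists and tests were chosen with earlier results of these data known. Named genes were all members of 8 lists (surrogate light chain, EBF1 targets, both groups of transcription factors, V(D)J, interleukin 7, MHC class II, erythroid), the 12 highest and 12 lowest non-overlapping called genes above background on all 6 arrays, the 6 largest bounds each way, and up to 6 called and 3 bright uncalled members of each other list. Genes outside this rule are marked as named after their values were seen. Lists are described by counts and medians and carry no test of their own. Alternatives covered background correction, scaling, filters, blocks, weights, probe summary, thresholds and leaving out each array; the restriction to RefSeq-identifier probes was added after seeing the data. Promoter sequences are RefSeq's (GRCm38.p6). Some results covered by the rule for named genes are not reported here.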

Additional observations from a re-analysis of the deposited data

Results flagged for a closer look

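Among probes without a gene name, which enter no comparison of genes, 11 were well above background on all 3 EBF1wt arrays and on none of the 3 Mock arrays. They were picked by this pattern from data outside the main measurement, so their lack of signal in Mock follows from the selection. The reverse pattern held for 307 such probes. These counts are out of 6391 probes without a gene name, of which 2360 were kept. Among the 12002 genes tested, 89 were above background in EBF1wt only and 448 in Mock only.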

How the results depend on the processing

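Against 2326 genes called (795 higher, 1531 lower), normexp correction with quantile normalization gave 1032 (394 and 638), the authors' values 1009 (393 and 616), scaling to the median 5371 (4584 and 787), probes above background on all 9 arrays 1485 (634 and 851), no fold limit 7988 (4749 and 3239) and a 4-fold limit 804 (192 and 612). The cause was not tested, apart from the fewer genes (10701) that the stricter filter leaves and the thresholds themselves. Leaving out 1 array in turn gave 2152 to 2359 genes, 740 to 841 higher and 1412 to 1538 lower. The Ebf1 difference turned to -1.0 when the probes of a gene were averaged, because its second probe, not above background in EBF1wt, went the other way. With T before the promoter motif, 12.2% of genes called higher held it, beside 9.05% of all. Same-numbered arrays of the groups correlated in their deviations at -0.077, -0.042 and 0.054, so the numbers were not taken as pairs, and a replicate block gave 2324 genes (795 higher, 1529 lower). Of 180 named genes called, Ebf1 aside, none reversed under any alternative run; 39 lost their call with normexp correction, 41 with the authors' values, 31 under scaling to the median and 14 under quantile normalization. Signals not well above background allow only bounds.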

Other observations

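Other gene groups are given beside 6.62% of all genes called higher and 12.8% lower. Of 17 integrin and adhesion genes 6 were lower and 1 higher, with a median of -0.73. Of 9 RGS genes, regulators of G-protein signalling, 1 was lower and 1 higher. Of 18 immediate early genes 5 were higher and 4 lower, among the latter Egr2 (-4.69) and Jun (-1.60), the second of which lost its call under scaling to the median. Of 16 FOXO target genes 1 was higher and 1 lower, and of 20 chromatin regulators 1 and 1, shares at or below those of all genes. Of 18 cyclins and inhibitors 3 were higher and 3 lower.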
